A study of Mus musculus with 6 samples.

Results

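The interleukin-10 (IL-10) receptor, JAK and STAT3 feedback axis was taken as 7 genes: the ligand Il10, the receptor chains Il10ra and Il10rb, the receptor-bound kinases Jak1 and Tyk2, the transcription factor Stat3 and the feedback inhibitor Socs3. They were chosen by name as parts of the pathway, with earlier results of these data known, out of 29393 genes in the count table, and all 7 passed the filter on low counts. IL-10 binds the high-affinity chain IL10RA, which pairs with the widely shared chain IL10RB. JAK1 sits on IL10RA and TYK2 on IL10RB, and the active kinases phosphorylate STAT3, which moves to the nucleus and switches on target genes. SOCS3, itself a STAT3 target, blocks JAK1 at receptors that use the gp130 chain and leaves IL-10 receptor signalling largely untouched, and in T cells IL-10 is known both as a product and as a restraining signal.

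The cells were mouse cDNT, T cells with neither CD4 nor CD8 that had been converted ex vivo from CD4+ T cells. They were adult C57BL/6 cells, given as of splenic origin and sorted by flow cytometry. In the paper's account, the starting CD4+ T cells came from lymph nodes as well as spleens. They were cultured together with mature dendritic cells before sorting. The W/ IL-10 group received IL-10 at 50 ng/ml for 24 h and the W/O IL-10 group received none, with 3 libraries in each. The methods of the study add anti-CD3/CD28 antibodies, which activate T cells through their receptor, while the sample labels do not mention them. Likewise the methods name a NEBNext library kit and the labels a TruSeq kit. No source says that the libraries came from separate cultures or animals, so the p-values measure the spread between libraries, which may be technical.

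Total counts on genes ranged from 21619420 to 23967088 per library. At this depth 3 counts, used here as the smallest amount the data can show, correspond to 0.123 to 0.146 CPM (the usual abundance unit, in which each count is scaled to a common library total, here with the TMM factors of edgeR), which covers counting error only. T cell genes were abundant in every library. The summed level of 7 T cell markers was 1309 to 1673 CPM W/O IL-10 and 1740 to 1859 CPM W/ IL-10. Cd4 had 8 to 38 counts per library, whereas Cd8a had 2316 to 3786, so RNA of a CD8 chain was present in cells labelled as lacking the protein. As these are bulk libraries, a change in the share of a cell type and a change in RNA per cell cannot be told apart.

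In cells W/ IL-10, Il10 and Socs3 rose, Il10ra fell, and Il10rb, Jak1, Tyk2 and Stat3 did not pass the test. A gene is said to have risen or fallen where its adjusted p-value in the quasi-likelihood test of edgeR (Benjamini-Hochberg, over 14916 tested genes) was under 0.05, and is called where its fold change was also at least 1.5. By that rule 2 of the 7 genes were called higher, against 0.778% of all tested genes, and 1 was called lower, against 0.677%. Of the 2 called higher, Il10 passed the filter on low counts only through the W/ IL-10 libraries. At any fold, 3 of the 7 passed the adjusted p, against 2.19% of all tested genes. The median log2 fold change (W/ over W/O IL-10) came to -0.02 for the 7 genes and to 0.01 for all tested genes. The libraries of the 2 groups did not overlap for 3 of the 7 genes in the higher direction, against 11.3% of tested genes, and for 1 in the lower direction, against 11.2%.

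**Figure D1:**
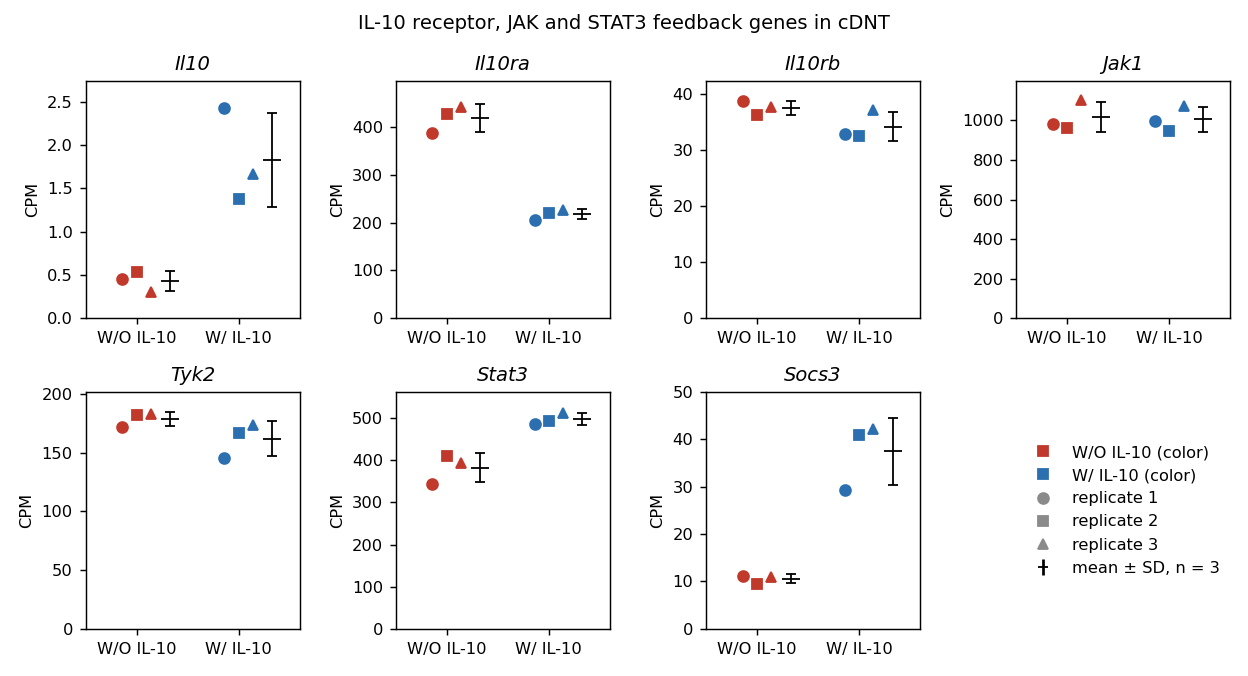
Level of each of the 7 genes in CPM (y axis, from 0) in the 3 libraries W/O IL-10 (red) and the 3 W/ IL-10 (blue), with the mean ± SD of each group beside the points. Il10 and Socs3 are higher in every library W/ IL-10, Il10ra is lower in every one, and the points of Il10rb, Jak1 and Tyk2 overlap between groups.

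Short stretches of sequence are given first for the genes that passed the test and whose promoters hold a STAT-type motif, and for Jak1, the other gene of the axis with a match. The motif searched was TTCNNNGAA, the core of a STAT site, which reads the same on either strand. RefSeq promoter windows on GRCm38.p6, from 250 bases before the start of a gene to 50 after it, were matched for 4 of the 7 genes (Jak1, Tyk2, Stat3 and Socs3). Of 32851 such windows of mouse genes, 8.3% held the motif. The window of Socs3 held it once, and those of Jak1, Tyk2 and Stat3 did not. The Socs3 window is shown whole, because Socs3 was the gene of the axis with the smallest p-value. It lies at chr11:117969317-117969616 on the minus strand and is printed 5′ to 3′ along the gene, with the motif in capitals.
Socs3: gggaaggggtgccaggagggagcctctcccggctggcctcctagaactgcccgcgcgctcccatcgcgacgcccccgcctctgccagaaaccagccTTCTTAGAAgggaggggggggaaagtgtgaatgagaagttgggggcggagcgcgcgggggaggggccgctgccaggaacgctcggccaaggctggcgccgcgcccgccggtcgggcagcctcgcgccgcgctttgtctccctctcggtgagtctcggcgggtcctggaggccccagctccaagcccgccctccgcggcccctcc

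The motif begins at position -154 relative to the RefSeq start. In the GENCODE M21 annotation the 29 bases around it (chr11:117969502-117969530) lie in no exon. They are 316 bases upstream of the 5′ end of the coding transcript of longest span, which GENCODE places at position 117969186. They are still inside the Socs3 gene model, whose 3 transcripts together span 117966079 to 117970047 on the minus strand. Among the genes around the axis that are described below as passing the test, and that had a window, Sbno2 and Ifnar2 also held the motif, and Bcl3, Pim1, Pim2, Junb, Batf, Jak3, Il21r, Tbx21 and Eomes did not. The motif was also present in windows of genes around the axis that did not pass the test, namely Bcl6, Zfp36, Ikzf1, Ifnar1 and Cish. It was present in that of Il19 as well, which had too few counts to be tested. Whether the motif goes with passing the test was not tested. Sbno2 had it in 2 of its 3 windows, both on the minus strand, at chr10:80102710-80102738 and chr10:80101193-80101221. Ifnar2 had it once, on the plus strand, at chr16:91372559-91372587. Their motifs are in capitals, with 10 bases on each side.
Sbno2, upstream window: gccgcgccccTTCGCAGAAgcggaagtgc
Sbno2, downstream window: ccggctctgcTTCCCGGAAtgcctgtgag
Ifnar2: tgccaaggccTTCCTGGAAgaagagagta

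A cyclic-AMP-type site, TGACGTCA, a letter sequence that is also the same on either strand and occurred in 1.79% of the 32851 windows, was present once in the Jak1 window, at position -101 relative to the RefSeq start and at chr4:101265307-101265334 on the minus strand. The core of a MAF site, TGCTGAC, searched on both strands, occurred in 4.67% of windows and in none of the 4. These matches describe letters in a window and not binding. In the Jak1 stretch the capitals mark the TGACGTCA match.
Jak1: gagcagcttcTGACGTCAcgggggctgg

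Il10, the ligand of the axis (ENSMUSG00000016529, GRCm38 chromosome 1, 131019845 to 131024974, plus strand), was nearly silent W/O IL-10 and rose W/ IL-10. The W/O IL-10 libraries held 11, 13 and 7 counts, which is 0.449, 0.538 and 0.302 CPM, and the W/ IL-10 libraries held 50, 31 and 38 counts, which is 2.43, 1.38 and 1.67 CPM. Every library W/ IL-10 lay above every library W/O IL-10, and the highest value was that of W/ IL-10 replicate 1. The group means were 0.430 ± 0.119 CPM and 1.82 ± 0.544 CPM (SD, n = 3 libraries each).

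The log2 fold change of Il10 was 2.08 (SE 0.38, 95% interval 1.22 to 2.94), a 4.22-fold rise with an interval of 2.33 to 7.66, and the adjusted p-value of the edgeR test was 0.0318. It was the 7th highest fold of all tested genes but ranked 194th by p-value. With 7 counts in W/O IL-10 replicate 3, Il10 met the filter of 10 counts in 3 libraries only through the W/ IL-10 libraries, where it was high. Its fold rank is therefore a description only. Counting error alone spans 0.121 to 0.621 CPM for the lowest library W/O IL-10 and 0.286 to 0.920 CPM for the highest, and the lowest library W/ IL-10 spans 0.935 to 1.95 CPM (exact Poisson 95% intervals).

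Il10 lost its call in 5 of the 6 fits with 1 library left out. Its adjusted p-value in edgeR was 0.0889 without W/O IL-10 replicate 2, 0.0842 without W/O IL-10 replicate 3, 0.123 without W/ IL-10 replicate 1, 0.0623 without W/ IL-10 replicate 2 and 0.139 without W/ IL-10 replicate 3, and it was 0.0285 without W/O IL-10 replicate 1. The fold stayed between 1.82 and 2.26 on the log2 scale in these fits.

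RNA of Il10ra, the chain that binds IL-10 (ENSMUSG00000032089, chromosome 9, 45253837 to 45269149, minus strand), fell W/ IL-10. The W/O IL-10 libraries had 387, 428 and 442 CPM, and the W/ IL-10 libraries 206, 221 and 226 CPM. The groups were far apart, since the lowest library W/O IL-10 was well above the highest W/ IL-10. The means were 419 ± 28.5 and 218 ± 10.5 CPM (SD, n = 3 libraries each). For the protein, the paper reports the other direction. By flow cytometry, IL-10 receptor expression on cDNT rose with the dose of IL-10. That measure counts cells positive for the receptor, and its relation to the RNA was not tested here.

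The log2 fold change of Il10ra was -0.95 (SE 0.08, 95% interval -1.13 to -0.76, adjusted p = 0.00122 in edgeR), a 1.93-fold lower level. It ranked 17th of the tested genes by p-value and 250th from the lowest fold. It fell in every fit with 1 library left out (log2 -1.01 to -0.91, highest adjusted p 0.0192 in edgeR) and in the 8 other fits (-0.96 to -0.88).

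Il10rb, the second chain, which also serves the receptors of IL-22 and type III interferons (ENSMUSG00000022969, chromosome 16, 91406164 to 91425834, plus strand), did not pass the test. It had 38.7, 36.2 and 37.6 CPM W/O IL-10 and 32.9, 32.5 and 37.1 CPM W/ IL-10, and the groups overlapped through W/ IL-10 replicate 3. The log2 fold change was -0.13 (SE 0.09, 95% interval -0.33 to 0.06, adjusted p = 0.532 in edgeR), and the interval leaves out a fall as large as that of Il10ra. Of the exon bases of Il10rb, 14.9% lie under Gm21970, a read-through gene model on the same strand that has no row in the count table, so its counts are the less certain ones of the receptor pair.

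The ratio of RNA of the 2 receptor chains did not overlap between the groups. Per kilobase of exon, Il10ra RNA exceeded Il10rb RNA 10.9, 12.9 and 12.8 times in the W/O IL-10 libraries and 6.81, 7.42 and 6.63 times in the W/ IL-10 libraries. Every ratio W/ IL-10 was below every ratio W/O IL-10, with means of 6.95 ± 0.415 and 12.2 ± 1.13 (SD, n = 3 libraries each). This ratio was 1 of 5 computed within libraries, all chosen after the values of the genes were seen. A two-sided exact permutation test gave p = 0.1, the smallest that 3 libraries against 3 allow, and 0.125 after adjustment over the 5 ratios.

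Jak1, the kinase of the IL10RA chain (ENSMUSG00000028530, chromosome 4, 101152367 to 101265282, minus strand), was the most abundant gene of the axis and did not pass the test. Its levels were 984, 964 and 1103 CPM W/O IL-10 and 998, 946 and 1071 CPM W/ IL-10, with the third library of each group highest and full overlap. Its log2 fold change was -0.02 (SE 0.09, 95% interval -0.23 to 0.19, adjusted p = 0.956 in edgeR). The interval lies inside the 1.5-fold limit on both sides.

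Tyk2, the kinase of the IL10RB chain (ENSMUSG00000032175, chromosome 9, 21104068 to 21131243, minus strand), had 172, 182 and 183 CPM W/O IL-10 and 145, 167 and 174 CPM W/ IL-10. Only W/ IL-10 replicate 3 reached the W/O IL-10 range. For Tyk2 the log2 fold change was -0.14 (SE 0.08, 95% interval -0.34 to 0.05, adjusted p = 0.489 in edgeR). An antisense RNA, 1700084C06Rik, lies over 8.1% of the exon bases of Tyk2, and whether the counting used strand is not given in the sources used here. The ratio of Jak1 to Tyk2 per kilobase was 5.40 ± 0.348 in the W/O IL-10 group and 5.93 ± 0.576 in the W/ IL-10 group (exact permutation p = 0.3, also 0.3 after adjustment over the 5 ratios, n = 3 libraries each).

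Stat3, the transcription factor through which the receptor acts (ENSMUSG00000004040, chromosome 11, 100885098 to 100939540, minus strand), had 343, 409 and 393 CPM W/O IL-10 and 486, 494 and 512 CPM W/ IL-10. The groups did not overlap. The means were 382 ± 34.6 and 498 ± 13.1 CPM (SD, n = 3 libraries each). The log2 fold change was 0.38 (SE 0.09, 95% interval 0.18 to 0.58), or 1.30-fold, and its adjusted p of 0.0720 in edgeR did not pass the threshold.

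The test of Stat3 lay close to the threshold, and 4 of 8 alternative fits placed it past it. The adjusted p was 0.00709 in DESeq2, 0.0136 in edgeR without a filter on low counts and 0.0192 in edgeR after correcting for the GC content and the length of genes, and 0.00793 where a term for the replicate number joined that correction. In the fits with 1 library left out it stayed between 0.0718 and 0.269. The fold was between 0.30 and 0.47 on the log2 scale throughout, under the 1.5-fold limit. Stat5a, on the opposite strand, covers 72 of its exon bases (0.8%), and the log2 fold change of Stat5a itself was 0.06 (adjusted p = 0.779 in edgeR).

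Socs3, the feedback inhibitor (ENSMUSG00000053113, chromosome 11, 117966079 to 117970047, minus strand), showed the smallest p-value of the axis. Its levels were 11.2, 9.56 and 10.98 CPM W/O IL-10 and 29.2, 40.9 and 42.1 CPM W/ IL-10. The groups were far apart, and the lowest of the treated libraries was W/ IL-10 replicate 1. The means were 10.6 ± 0.906 and 37.4 ± 7.11 CPM (SD, n = 3 libraries each).

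Socs3 rose by 1.82 on the log2 scale (SE 0.15, 95% interval 1.47 to 2.17, adjusted p = 0.00102 in edgeR), which is 3.54-fold with an interval of 2.78 to 4.50. It was 14th of the tested genes by p-value and 18th by fold. The rise was 1.73 to 1.97 with 1 library left out (highest adjusted p 0.0129 in edgeR) and 1.80 to 1.92 in the 8 other fits. No 50-base stretch of its transcripts, nor of those of Il10, Il10ra and Jak1, occurred in transcripts of another gene.

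Within the W/ IL-10 group, the library with the most Il10 RNA (replicate 1, 2.43 CPM) had the least Socs3 (29.2 CPM), Stat3 (486 CPM) and Il10ra (206 CPM). With 3 libraries this is given as an order of values only.

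**Figure D2:**
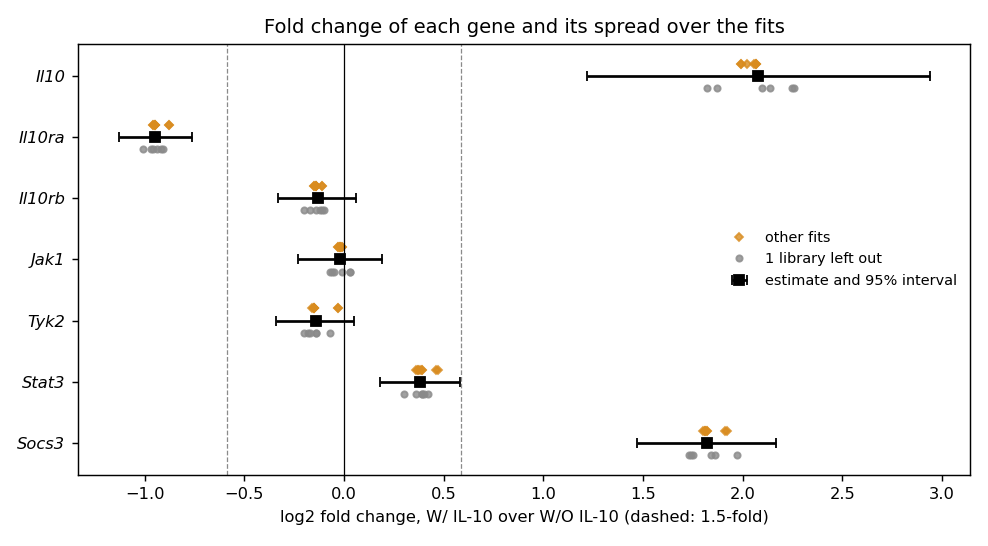
Log2 fold change, W/ IL-10 over W/O IL-10 (x axis), of each of the 7 genes: squares with 95% intervals are the edgeR estimates, diamonds the other fits and grey circles the fits with 1 library left out, with dashed lines at 1.5-fold. The interval of Il10 (1.22 to 2.94) is the widest, that of Il10ra (-1.13 to -0.76) lies wholly under the lower dashed line, and that of Stat3 (0.18 to 0.58) lies between 0 and the upper one.

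The axis spanned a wide range of RNA levels. In CPM per kilobase of exon, the order W/O IL-10 was Jak1 (141), Il10ra (120), Stat3 (40.1), Tyk2 (26.0), Il10rb (9.84), Socs3 (3.66) and Il10 (0.328), and no neighbours in this order had overlapping libraries. Jak1 and Il10ra stood at the 98.1 and 97.8 percentiles of all tested genes, while Socs3 stood at the 42.6 and Il10 at the 9.59 percentile. In cells that had received no IL-10, RNA of the binding chain, of Jak1 and of Stat3 was therefore abundant, while the ligand was close to the floor.

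W/ IL-10, the same scale gave Jak1 139, Il10ra 62.2, Stat3 52.2, Tyk2 23.6, Socs3 12.9, Il10rb 8.97 and Il10 1.39 CPM per kilobase, again with no overlap between neighbours. Socs3 moved past Il10rb, to the 72.1 percentile, and Il10 moved to the 27.0 percentile. Il10ra remained among the abundant genes, at the 94.9 percentile. When length was taken from the longest transcript instead of all exons, Stat3 (82.3 CPM per kilobase) stood above Il10ra (62.2) W/ IL-10, and the libraries of Socs3 and Il10rb overlapped.

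**Figure D3:**
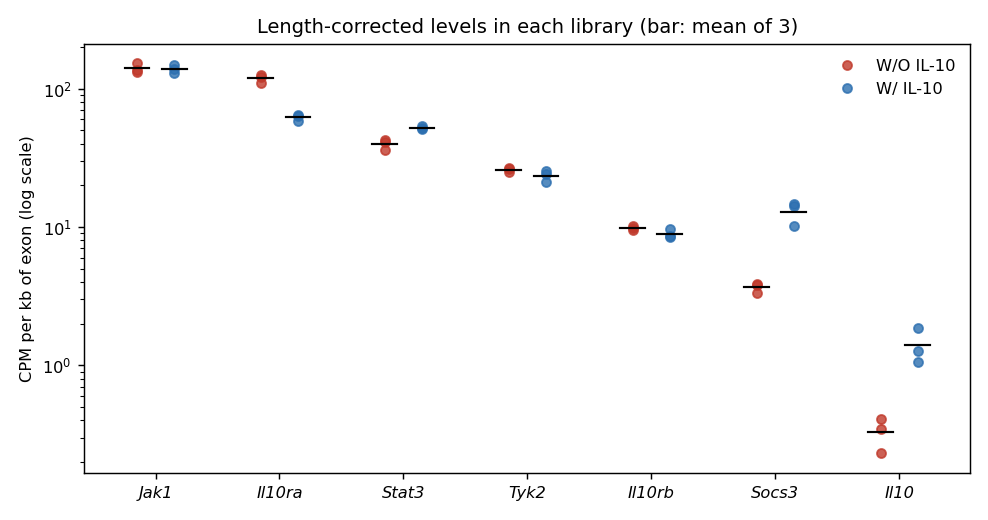
Level in CPM per kilobase of exon (y axis, log scale) of the 7 genes in each library W/O IL-10 (red) and W/ IL-10 (blue), with a bar at the mean of 3 libraries. Jak1 stays near 140 in both groups, Il10ra comes down from 120 to 62.2, close to Stat3, and Socs3 climbs from 3.66 to 12.9.

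The feedback inhibitor and the transcription factor were also read against the receptor within each library. Stat3 RNA per kilobase was 0.325, 0.351 and 0.327 times that of Il10ra in the W/O IL-10 libraries and 0.868, 0.820 and 0.833 times in the W/ IL-10 libraries. Socs3 was 0.0351, 0.0270 and 0.0300 times Il10ra W/O IL-10 and 0.172, 0.224 and 0.226 times W/ IL-10. Socs3 over Stat3 was 0.0923 ± 0.0155 in the W/O IL-10 group and 0.247 ± 0.0427 in the W/ IL-10 group (SD, n = 3 libraries each). For each of these 3 ratios the groups did not overlap and the exact permutation p was 0.1, the smallest possible, or 0.125 after adjustment. In every library W/ IL-10, Stat3 and Socs3 were higher and Il10ra lower. The ratios of Stat3 and of Socs3 to Il10ra therefore could not overlap, and they add nothing to the single genes.

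**Figure D4:**
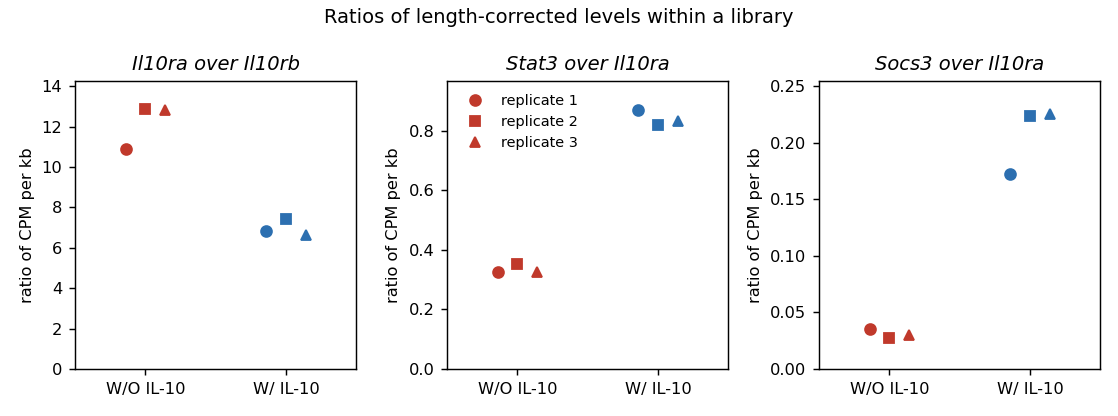
Ratios of CPM per kilobase within each library (y axes, from 0) W/O IL-10 (red) and W/ IL-10 (blue), each point being 1 library. Il10ra over Il10rb is 10.9 to 12.9 W/O IL-10 and 6.63 to 7.42 W/ IL-10, while Stat3 over Il10ra and Socs3 over Il10ra are higher in every library W/ IL-10.

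The receptors next to Il10rb on chromosome 16 belong to the interferons, and the type I interferon receptor among them shares the kinases of the axis. Ifnar2, which ends 575 bases from Il10rb on the same strand and encodes a chain of the type I interferon receptor, had 49.2, 47.5 and 50.6 CPM W/O IL-10 and 36.6, 35.8 and 38.8 CPM W/ IL-10. It fell, with a log2 fold change of -0.40 (SE 0.08, adjusted p = 0.0374 in edgeR). Gm21970, the same read-through model as over Il10rb, covers 9.5% of its exon bases. For the other chain, Ifnar1, the log2 fold change was -0.18 (adjusted p = 0.391 in edgeR).

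Of the interferon-gamma receptor genes, Ifngr2, the third in this row of genes, had 7.68, 7.82 and 4.91 CPM W/O IL-10 and 2.58, 4.40 and 3.46 CPM W/ IL-10, without overlap, and a log2 fold change of -0.97 (adjusted p = 0.106 in edgeR). Ifngr1 had 0.20 (adjusted p = 0.448 in edgeR). In all, 1 of 4 interferon receptor genes fell and 3 did not pass the test, with a median log2 fold change of -0.29. Of all tested genes 0.979% fell, and the median over all of them was 0.01.

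Cytokines related to IL-10 and their receptors were hardly detected. Of 11 such genes 7 were in the table, and 1 of them, Il20rb, had enough counts to be tested (log2 0.25, adjusted p = 0.444 in edgeR). Il22 had 0 to 9 counts per library, Il19, which lies 79730 bases from Il10, had 0 or 1, and Il24 likewise 0 or 1.

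Among 8 other JAK and STAT genes, Jak3 alone passed the test. Jak3 is the kinase of the common gamma chain, through which IL-2 and IL-21 signal. It had 342, 348 and 362 CPM W/O IL-10 and 528, 531 and 600 CPM W/ IL-10, so the groups were separate. Its log2 fold change was 0.66 (SE 0.08, adjusted p = 0.00831 in edgeR), and the adjusted p was 0.0541 without W/O IL-10 replicate 2 and 0.0594 without W/ IL-10 replicate 3. Insl3, on the same strand, lies over 7.5% of its exon bases. The other 7 included Jak2 (0.08), Stat5a (0.06) and Stat5b (-0.16), and the median over the 8 was -0.02.

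None of 15 other inhibitors of JAK-STAT signalling passed the adjusted p in edgeR, DESeq2 or limma-voom, and 2 of them, Ptpn6 and Socs2, had an unadjusted p under 0.05 in each of the 3. The median log2 fold change was -0.01. The nearest was Ptpn6, which encodes the phosphatase SHP-1 (log2 0.30, adjusted p = 0.104), and it did pass in edgeR with the GC and length correction (0.37, adjusted p = 0.0200) and with the replicate block added to that correction (0.37, adjusted p = 0.00954). The other SOCS genes with known roles in T cells gave values of -0.03 for Socs1 (95% interval -0.36 to 0.29), -0.42 for Socs2 (-0.80 to -0.04, adjusted p = 0.288) and -0.08 for Cish (-0.30 to 0.15), all on the log2 scale. The Cish promoter held TTCNNNGAA at 2 places and that of Socs1 at none. The differences between Socs3 and these genes were not tested.

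Of 8 genes for other receptors that activate STAT3, 7 were tested. Il21r, the receptor of IL-21, rose from 70.3, 83.8 and 106 CPM to 131, 143 and 146 CPM, without overlap (log2 0.69, SE 0.14, adjusted p = 0.0424 in edgeR). The call was lost without W/O IL-10 replicate 2, W/ IL-10 replicate 1, W/ IL-10 replicate 2 or W/ IL-10 replicate 3, with adjusted p-values of 0.132 to 0.206. Il23r had -0.79 (adjusted p = 0.0898) and Il6st, which encodes gp130, had 0.16 (adjusted p = 0.580). The median of the 7 was 0.07.

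The genes known to respond to IL-10 or STAT3 that passed the test all rose. Of 16 in the list, 6 rose, none fell and 10 did not pass the test. Of all tested genes 1.21% rose and 0.979% fell. Among the 6, 3 were called (Bcl3, Pim2 and Junb). The lists were chosen with earlier results of these data known, so these shares describe the list and are not a test of it. The median over the 16 was 0.20. Bcl3, which encodes an atypical I-kappa-B protein that regulates NF-kappa-B target genes, had 19.2, 16.4 and 16.6 CPM W/O IL-10 and 54.4, 55.6 and 57.8 CPM W/ IL-10. Pim2, a survival kinase, had 95.1, 80.7 and 81.2 CPM W/O IL-10 and 239, 236 and 226 CPM W/ IL-10. The groups were far apart for both, with log2 fold changes of 1.69 (SE 0.09, adjusted p = 0.000202 in edgeR) and 1.45 (SE 0.09, adjusted p = 0.000248). Both kept their calls in all fits run, while an antisense gene model, Gm16175, covers 6.5% of the exon bases of Bcl3.

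The other 4 rose by less. The log2 fold change of Junb, an AP-1 subunit, was 0.62 (adjusted p = 0.0236 in edgeR), Pim1, a kinase related to Pim2, 0.52 (0.0190), Sbno2, a co-regulator induced by IL-10 in macrophages, 0.49 (0.0145), and Batf, an AP-1 family factor, 0.48 (0.0390). The groups did not overlap for any of them. Pim1, Sbno2 and Batf passed the test in 1 of the 6 fits with a library left out, that without W/O IL-10 replicate 1, and Junb in 2, those without replicate 1 of either group, with adjusted p-values of up to 0.112, 0.107, 0.151 and 0.139 in the other fits. Antisense or opposite-strand genes cover 14.5% of the exon bases of Pim1 and 7.5% of those of Junb.

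Factors known to regulate Il10 transcription moved in both directions. Of 12, 2 rose, 2 fell and 8 did not pass the test, with a median log2 fold change of 0.08. Of all tested genes 1.21% rose and 0.979% fell, with a median of 0.01. Batf rose as above, and Tbx21, which encodes T-bet, had 23.9 ± 1.98 CPM W/O IL-10 and 32.6 ± 0.325 CPM W/ IL-10 (log2 0.45, adjusted p = 0.0467 in edgeR). Its adjusted p was 0.0610 with upper-quartile normalization and 0.0507 with at least 10 counts required in every library.

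Maf, which encodes an activator of Il10 in several T cell subsets, fell while Il10 itself rose. It had 72.6, 79.7 and 69.4 CPM W/O IL-10 and 56.4, 51.1 and 47.6 CPM W/ IL-10 (log2 -0.52, SE 0.09, adjusted p = 0.0272 in edgeR). Eomes, a T-box factor related to T-bet, fell from 517 ± 20.5 to 364 ± 16.7 CPM (log2 -0.51, SE 0.08, adjusted p = 0.0176; SD, n = 3 libraries each). Antisense gene models cover 5.3% of the exon bases of Maf and 2.8% of those of Eomes. With libraries left out, the tests of Ifnar2, Tbx21 and Eomes passed only without W/O IL-10 replicate 1, and that of Maf only without replicate 1 or 3 of W/O IL-10, with adjusted p-values of up to 0.139, 0.210, 0.126 and 0.160 in the other fits.

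**Figure D5:**
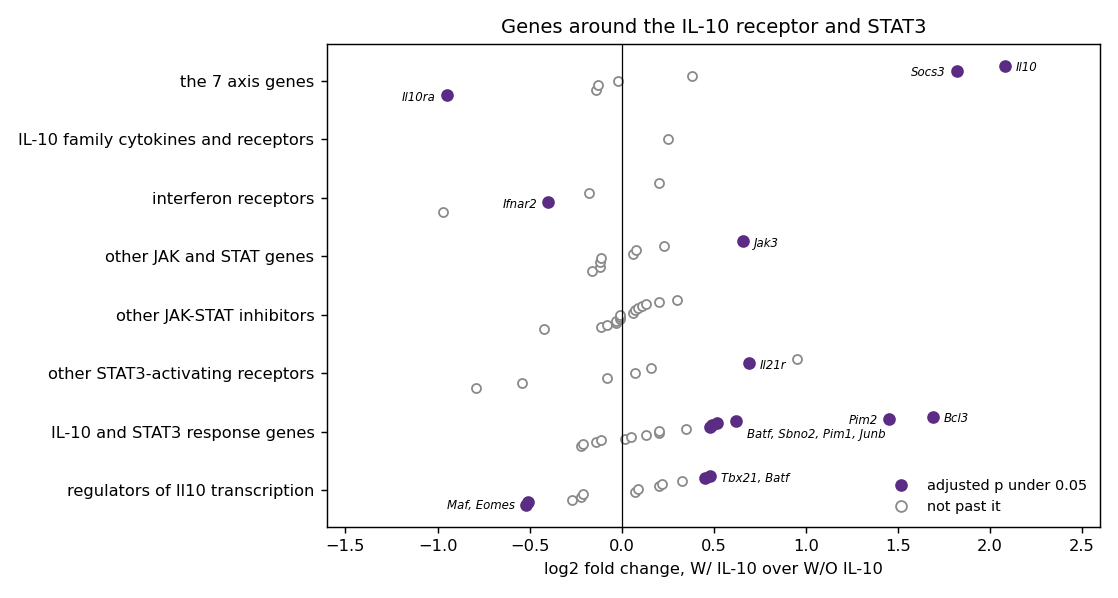
Log2 fold change, W/ IL-10 over W/O IL-10 (x axis), of every tested gene of the axis and of 7 lists around it (rows, spread vertically for legibility), with filled points for genes with an adjusted p under 0.05 in edgeR. All 6 filled points of the IL-10 and STAT3 response genes are on the right, none of the 15 other inhibitors is filled in this fit, and Batf appears in 2 lists.

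Markers of other cell types were read beside these results. Of the dendritic cell and macrophage markers, 10 were found in the table. Their summed level was 30.1 to 33.7 CPM W/O IL-10 and 49.7 to 61.3 CPM W/ IL-10. This sum was higher where Il10 and Socs3 were higher, but the median log2 fold change of the 5 tested markers was -0.56. Most of the sum was Itgax, which encodes CD11c and is also made by activated T cells (20.4 ± 2.06 to 43.2 ± 5.36 CPM, log2 1.09, adjusted p = 0.00383 in edgeR). Xcr1 had 85 to 147 counts and was higher in every library W/ IL-10 (log2 0.60, adjusted p = 0.184 in edgeR). Cd14 had 49 to 111 counts and was lower in every one (-0.56, adjusted p = 0.287). Lyz2 (17 to 88 counts, log2 -0.62, adjusted p = 0.666) and Adgre1 (13 to 66, log2 -0.59, adjusted p = 0.617) overlapped between the groups. The other 5 markers had at most 8 counts in any library, among them Clec9a and Siglech with at most 1. The part of these cells in the values of the axis genes was not tested.

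The summed level of 5 B cell markers was 62.3, 153 and 104 CPM W/O IL-10 and 61.6, 106 and 59.4 CPM W/ IL-10, with overlap. None of the 5 passed the test, but all had log2 fold changes below 0, from -0.65 to -0.36, the same direction as Il10ra, and the part of B cells in the fall of Il10ra was not tested. Natural killer cell markers summed to 57.2 to 61.7 CPM W/O IL-10 and 51.0 to 66.0 CPM W/ IL-10. Ncr1 among them fell (log2 -1.15, adjusted p = 0.0460 in edgeR). The other 3 did not pass the test and went in both directions (Klrb1c -0.26, Klre1 0.42 and Klra8 0.38). Regulatory T cell markers summed to 173 to 231 and 205 to 273 CPM, with 3 to 26 counts of Foxp3 per library. Of the T cell genes, Cd5 fell (-0.47, adjusted p = 0.0467 in edgeR). The other 6 did not pass the test, and all had log2 fold changes above 0, from 0.15 (Cd247) to 0.40 (Lck). Of the coreceptors, Cd8a (0.56, adjusted p = 0.0369) and Cd8b1 (0.67, adjusted p = 0.0306) rose.

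Fold changes also followed the GC content of genes. The median log2 fold change was 0.24 over the 1010 tested genes under 40% GC and -0.12 over the 544 genes of at least 60%. Socs3, with 58.7% GC, lay in a bin (55 to 60%) with a median of -0.08, and Il10, with 44.5%, lay in a bin with a median of 0.11. Il10ra (53.0%) and Stat3 (52.5%) lay in a bin with a median of -0.04. With the GC and length correction, Il10, Il10ra and Socs3 still passed the adjusted p in edgeR.

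Genes whose profile over the 6 libraries was most like that of each member were listed by Pearson r of log2 CPM, among 9105 genes with a mean of at least 10 CPM. The libraries fall into the 2 treatment groups, so for genes that differ between groups r mostly reflects that split. For Socs3 they were Cdkn2d (r = 0.997), which encodes a cell cycle inhibitor, Thy1 (0.995) and the inhibitory receptor Lag3 (0.993), of which Cdkn2d (log2 0.63, adjusted p = 0.00555 in edgeR) and Lag3 (1.12, adjusted p = 0.000544) rose. For Il10ra they were Rara, which encodes a retinoic acid receptor, Tnfrsf1b, which encodes a receptor of tumour necrosis factor, and Adgre5 (0.997, 0.997 and 0.996), of which Adgre5, encoding CD97, fell (-0.50, adjusted p = 0.0119).

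For Stat3 they were Tk1 (0.998), Gm43305 (0.996) and Mad2l1 (0.995), of which Mad2l1, a spindle checkpoint gene, rose (0.54, adjusted p = 0.0287 in edgeR). The list for Il10 was Sc5d, Dnm3 and Sept11 (0.9901, 0.989 and 0.983), and Dnm3 rose (0.62, adjusted p = 0.0227). Where a member did not differ between groups, the nearest genes were Ocel1 for Il10rb (0.9996), Stk4 for Jak1 (0.994) and Btbd2 for Tyk2 (0.995). None of these genes passed the test. Each r is the highest among 9105 genes over only 6 libraries, and shared regulation was not tested.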

How the data were processed

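The authors deposited raw counts of reads, not normalized, of 29393 genes in the 6 libraries. Each of these genes had a count in some library, and other genes had no row. The paper names TopHat, Cufflinks and UCSC annotation, whereas the submitters' processing notes name HISAT2, HTSeq and the build GRCm38. Versions and strand use are not given in the sources used here. The design text speaks of duplicates, and 3 libraries were listed in each group. All sample columns were used.

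TMM factors and quasi-likelihood tests were computed in edgeR 4.0.16 under R 4.3.3. A gene was tested if 3 or more libraries held 10 or more counts of it (14916 genes), and the fit used all 6 libraries, had no block, and was followed by Benjamini-Hochberg adjustment over all tested genes. The standard error is the absolute log2 fold change divided by the square root of F. Fold changes are unshrunken. Exon lengths, coordinates and symbols come from GENCODE M21 on GRCm38, in which 29332 of 29393 identifiers were found, and promoters from RefSeq. The steps were tested on simulated data.

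The named genes are the 7 members, each gene of the lists with an adjusted p under 0.05, or else that with the smallest p, other JAK, STAT, SOCS and interferon receptor genes of the lists where their value was needed, and the 3 genes most like each member. The members and lists were chosen with earlier results of these data known. Il22, Il19 and Il24 were named after their values were seen. The alternatives were DESeq2 1.42.0, upper-quartile normalization, no filter, a minimum of 10 counts in each library, limma-voom (limma 3.58.1), the replicate number as a block, splines (5 degrees of freedom) on GC content and length with and without that block, each library left out, and the longest transcript as length. Plots were drawn with matplotlib 3.10.9 in Python 3.11.15.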

Additional observations from a re-analysis of the deposited data

How the results depend on the processing

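Il10ra, Socs3, Bcl3 and Pim2 kept their direction and passed the adjusted p in every fit run. The number of axis genes called higher (2) was 1 with at least 10 counts required in every library, where Il10, with 7 counts in W/O IL-10 replicate 3, was no longer tested, and 1 with the replicate block, where Il10 had an adjusted p of 0.0564 in edgeR. It was 1 to 2 with 1 library left out. Jak1, at -0.02, changed sign to 0.03 without W/O IL-10 replicate 3 and to 0.03 without W/ IL-10 replicate 2, and otherwise went down to -0.07 with a library left out. The 116 genes called higher became 302 without a filter. The 101 called lower became 337 without a filter, 182 in DESeq2 and 163 with the GC and length correction plus the replicate block. The cause of these shifts was not tested. With 1 library left out, genes called higher numbered 31 (without W/ IL-10 replicate 3) to 124, genes called lower 4 (again without it) to 127 (both without W/O IL-10 replicate 1), and the 12 genes of the surrounding lists past the adjusted p 2 to 12. Without the GC and length correction, deviations of same-numbered libraries correlated at 0.0524, -0.0573 and 0.114 (numbers 1, 2 and 3). Those of differently numbered libraries correlated at -0.106 to 0.0409. Adding the replicate block to the GC and length correction moved genes called higher from 152 to 169 and genes called lower from 110 to 163. Whether the replicate numbers mark pairs of libraries was not tested. Used without that correction, the block also lifted the adjusted p in edgeR of Batf (0.0508), Ifnar2 (0.0609) and Tbx21 (0.0747) over the threshold. Tbx21 was over it as well with upper-quartile normalization (0.0610) and with at least 10 counts in every library (0.0507). At this depth Il10, at 7 to 50 counts, was the least precise gene of the axis.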
